A study of Homo sapiens with 72 samples.

Results

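The comparison of directly irradiated cells with control cells at 1 h after exposure rested on 8 arrays of the 72 in the study, chosen by their labels: 4 arrays of irradiated cells and 4 of controls, joined into 4 pairs by replicate number. All arrays held RNA of IMR-90 cells, an early-passage strain of human lung fibroblasts grown in medium with fetal bovine serum. Irradiated cells had received 50 cGy of helium ions, which stand in for α-particles, on dishes with a thin Mylar base, and the time-matched controls had been sham irradiated at 0 cGy. Bystander cells, which grew beside the irradiated cells behind a Mylar layer thick enough to stop the ions, were measured in the same experiments and serve here as a second reference and in the estimate of the spread, which was made over all 12 arrays at 1 h. The 4 replicates are 4 independent experiments on 1 cell strain, seeded from 1 frozen vial, and the array is a single-colour oligonucleotide array that reads the whole human transcriptome.

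α-particles leave dense tracks of ionization that break both strands of DNA, and cells answer by activating the kinase ATM and the transcription factor p53, whose targets arrest the cycle, repair DNA or start cell death. Oxidants and cytokines released after irradiation also act through MAP kinases and NF-kB, which switch on immediate early transcription factors and inflammatory genes within minutes. Metallothioneins, small cysteine-rich proteins that bind zinc, are switched on through the metal-sensing factor MTF1 when zinc is freed in the cell.

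The label was checked against markers. The 10 fibroblast markers, among them COL1A1, COL1A2, VIM and THY1, all passed the filter on dim probes. Of the markers of other cells, EPCAM, CDH1 and KRT5 of epithelium, PECAM1 and CDH5 of endothelium, and PTPRC of blood did not pass the filter, while KRT8, TEK and CD68 did.

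Array quality was even, with 70.8% to 75.4% of spots well above background on the irradiated arrays and 71.1% to 74.4% on the controls. The array of control replicate 4 stood apart. Its probes differed from the median of the 12 arrays at 1 h with an SD of 0.69 on the log2 scale, against 0.21 to 0.48 for the other 11 arrays. The SD of the log2 ratio of irradiated over control across probes was 0.41 in pair 1, 0.44 in pair 2, 0.47 in pair 3 and 0.78 in pair 4. In pair 4, 5283 probes were at least 1.5-fold higher and 6320 at least 1.5-fold lower, whereas pair 1 had 1434 and 1371. Across probes the ratios of pairs 3 and 4 had a Pearson correlation of 0.75, and the other pairs of replicates gave correlations from 0.05 to 0.23, which are correlations across probes, and probes are not independent replicates. Most lists and part of the genes are therefore also given by pair or with pair 4 left out. Other genes are given only as the mean and SD over the 4 pairs.

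**Figure D1:**
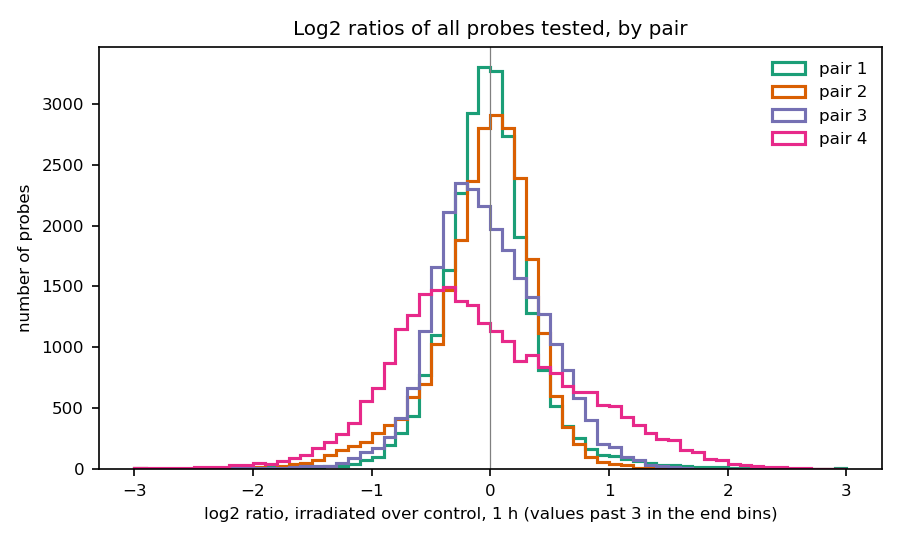
Number of probes (y axis) in bins of the log2 ratio of irradiated over control at 1 h (x axis), 1 line for each of the 4 pairs, over the probes that passed the filter, with ratios beyond the axis counted in the outermost bins. The line of pair 4 is the widest, with an SD of 0.78 against 0.41 in pair 1.

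No probe passed an adjusted p below 0.10, the limit used throughout, in limma's moderated test with replicate as a block (0 of 25246, or 0%). The lowest adjusted p was 0.138, and 1769 probes shared it. Before adjustment, 3120 probes (12.4%) were higher and 3678 (14.6%) lower in irradiated cells at p below 0.05. The counts were 2059 and 2491 when only the 8 arrays were fitted, 1439 (5.7%) and 1990 (7.88%) without replicate 3, and 1608 (6.37%) and 1885 (7.47%) without replicate 4. At any size, 3055 probes (12.1%) were higher in 4 of 4 pairs and 4404 (17.4%) were lower in 4 of 4. By size, 817 probes (3.24%) were higher in 4 of 4 pairs and at least 1.5-fold on the mean, and 796 (3.15%) were lower by the same rule. The 4 irradiated arrays all lay above the 4 controls for 593 probes (2.35%) and all below for 642 (2.54%). Pairs 1, 3 and 4 each lay on 1 slide, while pair 2 spanned slides 1 and 2. With slide added as a fixed block, 286 probes were called higher and 157 lower, whereas with slide as a random block none was. The split also moved with scaling: without scaling between arrays the median ratio of all probes went from -0.06 to 0.17, and 6245 probes were higher and 466 lower at an unadjusted p below 0.05, and with arrays scaled to the added E1A transcripts the median was 0.25 and the counts were 6386 and 212. Because nothing passed the limit, the genes below are described by their levels, and every direction is relative to scaling at the 75th percentile.

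Metallothioneins and zinc handling was the list with the largest median log2 ratio, 0.73 over 14 genes measured, beside -0.06 over all probes. Of the 14, 11 are metallothioneins, and the other 3 are MTF1 and the zinc transporters SLC30A1 and SLC39A10. By pair the list median was 0.56, 0.28, 0.43 and 1.68, so that it was above 0 in each pair. At an unadjusted p below 0.05, 11 of the 14 genes were higher, against 12.4% of all probes, none was lower, and 13 had a mean above 0. Leaving out replicate 4 gave 10 genes higher, against 6.37% of all probes, and a median of 0.42. The stretch before the start of a metallothionein gene carries metal response elements, the sites that MTF1 binds, and 3 such stretches are shown for the genes of the list in the RefSeq promoter table of GRCh38.p14 that had the most copies of the core. Letters in capitals mark the core TGCACNC or TGCGCNC on either strand, and overlapping copies run together. MT2A lies at chr16:56608334-56608583, MT1X at chr16:56682220-56682469 and MT1H at chr16:56669564-56669813, all on the plus strand, and each stretch is the 250 bases before the annotated start.
MT2A: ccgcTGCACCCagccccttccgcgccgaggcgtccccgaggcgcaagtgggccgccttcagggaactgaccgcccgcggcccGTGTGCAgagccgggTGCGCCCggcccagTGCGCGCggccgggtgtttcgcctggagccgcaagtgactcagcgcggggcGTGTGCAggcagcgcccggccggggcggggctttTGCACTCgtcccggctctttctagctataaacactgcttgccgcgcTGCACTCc
MT1X: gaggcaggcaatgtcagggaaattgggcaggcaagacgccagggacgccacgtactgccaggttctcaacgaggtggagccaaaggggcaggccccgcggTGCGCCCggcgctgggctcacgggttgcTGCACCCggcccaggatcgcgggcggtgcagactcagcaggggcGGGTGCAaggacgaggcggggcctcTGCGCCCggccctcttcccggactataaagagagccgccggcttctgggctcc
MT1H: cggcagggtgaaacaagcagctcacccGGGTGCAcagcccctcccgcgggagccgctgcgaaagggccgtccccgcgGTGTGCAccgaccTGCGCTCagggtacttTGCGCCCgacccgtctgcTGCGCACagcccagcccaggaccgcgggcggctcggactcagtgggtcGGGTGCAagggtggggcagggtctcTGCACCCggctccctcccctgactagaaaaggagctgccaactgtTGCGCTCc
MT2A held 7 copies, MT1X 4 and MT1H 8. The mean log2 ratios of these genes, described here for their sequences and not for their values, were 0.43, 0.75 and 0.77. Of 27305 such stretches in the table, 24.7% held at least 1 copy and 1.56% held 3 or more. A match of letters describes the sequence only, and binding was not measured.

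MT1M, a zinc-binding metallothionein, read 12.16, 11.77, 11.71 and 13.12 on the irradiated arrays and 10.77, 11.25, 11.07 and 11.17 on the controls, in the order of replicates 1 to 4 and, like every level given here, on the log2 scale of scaled signal. Every irradiated array was above every control. The mean log2 ratio was 1.12 ± 0.67 (SD, n = 4 pairs), or 2.18-fold, with an adjusted p of 0.138 by limma, and it was 0.85 with replicate 4 left out. MT1E read 13.38, 13.23, 13.43 and 14.73 on the irradiated arrays and 12.69, 12.76, 13.00 and 12.89 on the controls. Its groups did not overlap either, and its mean log2 ratio was 0.86 ± 0.67 (SD, n = 4 pairs). MT1F, at a mean control level of 5.65, had a log2 ratio of 1.23 ± 0.81, and MT1L, a pseudogene close to the other members, had 0.79 ± 0.60. Without replicate 4 the means of MT1E and MT1L were 0.53 and 0.50. The metallothionein genes are near-identical copies, so a probe named for one may also bind others, and which member gave the signal was not tested.

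Immediate early regulators had a median log2 ratio of 0.51 over 28 genes, and 27 of the 28 had a mean above 0. The medians by pair were 0.13, 0.21, 0.50 and 1.32. At an unadjusted p below 0.05, 12 genes were higher and none lower, against 12.4% and 14.6% of all probes. Leaving out replicate 4 gave 10 higher, against 6.37% of all probes, and a median of 0.27, and leaving out replicate 1 gave 20, against 14% of all probes. KLF2, a zinc finger transcription factor, read 13.10, 13.56, 12.11 and 14.83 on the irradiated arrays and 12.44, 12.87, 11.07 and 12.92 on the controls. The groups overlapped because both arrays of replicate 3 were low, but within each pair the irradiated array was higher, by 0.65, 0.68, 1.03 and 1.91. Its mean was 1.07 ± 0.58 (SD, n = 4 pairs), with an adjusted p of 0.138 by limma.

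ATF3, a stress-induced partner of AP-1 factors, read 12.53, 12.70, 12.66 and 14.02 on the irradiated arrays against 12.41, 12.34, 11.19 and 11.90 on the controls. The groups did not overlap, yet the pairs were unequal, with ratios of 0.11, 0.36, 1.47 and 2.12. FOSB, a subunit of AP-1, had ratios of 0.18, 0.40, 2.13 and 2.35, and its close relative FOS had 0.09, 0.47, 1.44 and 1.36. The orphan nuclear receptor NR4A3 had 0.32, 0.14, 1.18 and 2.47, while NR4A1 had -0.02, 0.22, 0.99 and 1.53. EGR1, a zinc finger factor at a mean control level of 14.56, had 0.22, 0.29, 0.24 and 1.00. The ratio of pair 4 was above those of pairs 1 and 2 for each of these genes, and so was that of pair 3 for all but EGR1.

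**Figure D2:**
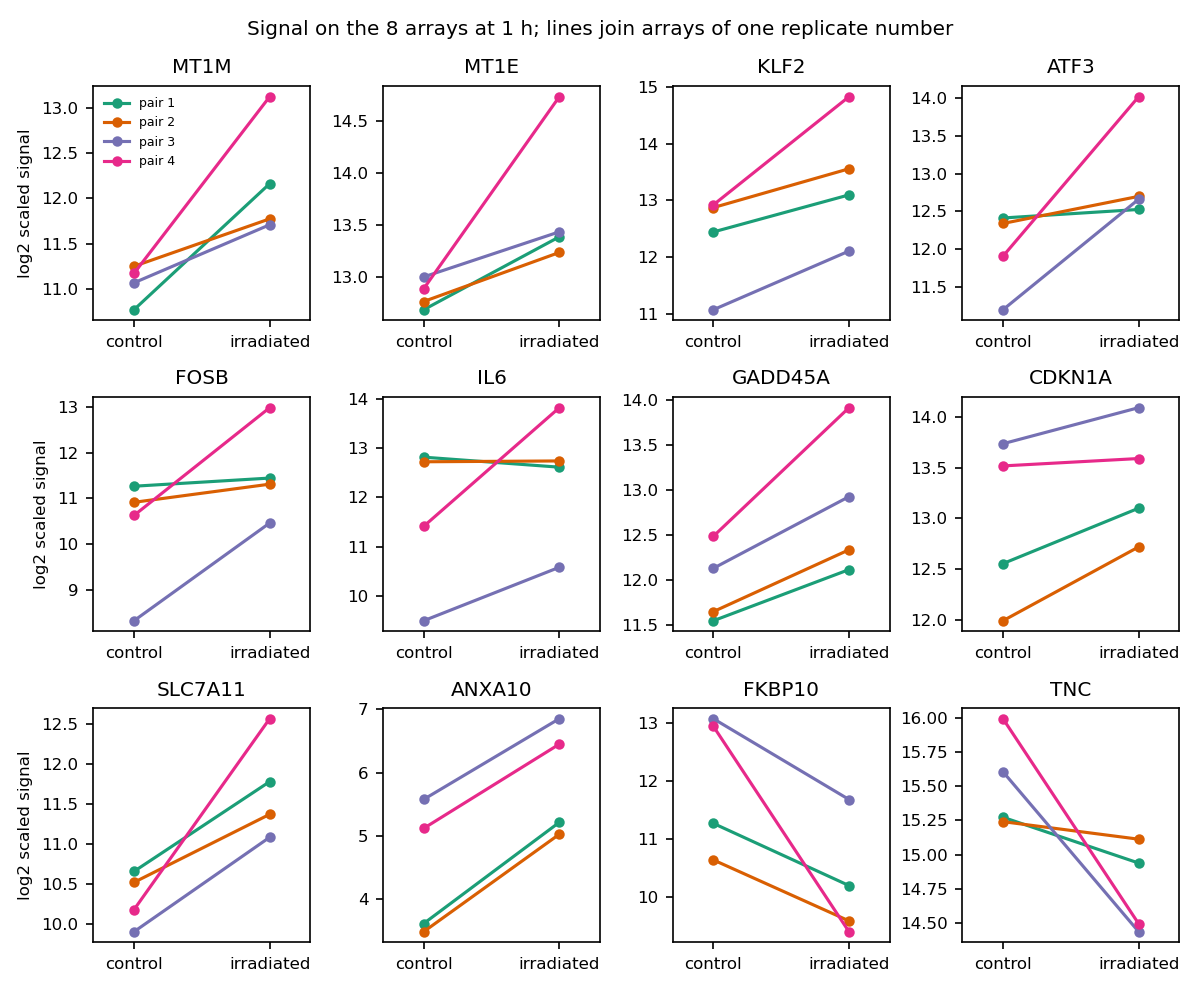
Log2 scaled signal (y axis) on the control and irradiated arrays at 1 h for 12 of the genes described (panels; for CDKN1A and SLC7A11 the brighter probe), with a line for each of the 4 pairs. The lines of MT1M, KLF2, GADD45A, SLC7A11 and ANXA10 all run up and those of FKBP10 and TNC all run down, while IL6 runs up in pairs 3 and 4.

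Inflammatory cytokines and chemokines split by pair. Their median log2 ratio was 0.38 over 17 genes, but the medians by pair were -0.20, -0.18, 0.52 and 1.38, and it was 0.04 with replicate 4 left out and 0.62 with replicate 1 left out. At an unadjusted p below 0.05, 3 genes were higher and 2 lower, near the shares of 12.4% and 14.6% among all probes, and the genes higher were 7 without replicate 1, where 14% of all probes were, and 1 without replicate 3, where 5.7% were. IL6, a cytokine of the acute phase, read 12.62, 12.74, 10.58 and 13.83 on the irradiated arrays and 12.82, 12.73, 9.49 and 11.41 on the controls. Its ratios of -0.20, 0.02, 1.09 and 2.42 gave a mean of 0.83 ± 1.20 (SD, n = 4 pairs), smaller than the spread between pairs. The neutrophil-attracting chemokine CXCL8 had ratios of -0.14, -0.44, 1.27 and 2.61. PTGS2, the inducible cyclooxygenase, had -0.64, -0.44, 1.11 and 3.01, and without replicate 4 its mean was 0.01.

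NF-kB subunits and feedback inhibitors were mixed, with a median of -0.02 over 15 genes (0.11 without replicate 1), 4 higher and 1 lower at an unadjusted p below 0.05, against 12.4% and 14.6% of all probes. Without replicate 3 or replicate 4 it was 2 and 0, against 5.7% and 7.88% of all probes without replicate 3 and 6.37% and 7.47% without replicate 4. REL, a subunit of NF-kB, had ratios of 0.30, 0.25, 0.93 and 2.31, and the deubiquitinase TNFAIP3, which shuts the pathway off, had 0.02, 0.10, 0.93 and 1.84. BCL3, a nuclear cofactor of the p50 and p52 subunits, had a mean of -0.52 ± 0.51 (SD, n = 4 pairs). It was 1 of the 15 genes lower in 4 of 4 pairs, against 17.4% of all probes. Among other NF-kB targets the median was 0.16 over 19 genes, and leaving out 1 replicate gave -0.09 (without replicate 4) to 0.34 (without replicate 1). SERPINB2 and MMP1 were named because they were higher in 4 of 4 pairs, as 3 of the 19 genes and 12.1% of all probes were. SERPINB2, an inhibitor of plasminogen activators, read 10.85, 11.07, 10.29 and 12.59 on the irradiated arrays and 10.13, 10.22, 8.56 and 9.86 on the controls. Its groups did not overlap, and its mean log2 ratio of 1.51 ± 0.93 was the largest among the genes named here. MMP1, the interstitial collagenase, read 13.94, 14.07, 13.98 and 14.69 against 13.21, 13.47, 12.96 and 12.54, also without overlap, with a mean of 1.13 ± 0.71 and 0.78 without replicate 4.

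The p53 targets stood near 0 as a list, with a median of 0.07 over 30 genes and medians by pair of 0.06, 0.16, 0.21 and 0.00, and without replicate 2 the median was -0.01. At an unadjusted p below 0.05, 8 were higher and 1 lower, against 12.4% and 14.6% of all probes, and 5 were higher without replicate 3 or replicate 4, against 5.7% and 6.37% of all probes. GADD45A, which binds PCNA and slows the cycle after DNA damage, read 12.12, 12.34, 12.93 and 13.91 on the irradiated arrays and 11.55, 11.65, 12.13 and 12.48 on the controls. The groups overlapped, but the ratios of 0.57, 0.69, 0.80 and 1.43 were all above 0, with a mean of 0.87 ± 0.38 (SD, n = 4 pairs) and an adjusted p of 0.138 by limma. MDM2, the ubiquitin ligase that keeps p53 low, had a mean control level of 5.92 and did not overlap between groups, with ratios of 0.90, 0.30, 0.86 and 0.68. With slide as a fixed block both had an adjusted p of 0.0923 by limma, and with slide as a random block both had 0.148. CDKN1A, the inhibitor of cyclin-dependent kinases known as p21, was measured by 2 probes that disagreed. The brighter probe gave 0.43 ± 0.28 and the dimmer gave -0.08 ± 0.28 (SD, n = 4 pairs). GDF15, BTG2 and PLK3 had means of 0.30 ± 0.34, 0.18 ± 0.36 and 0.51 ± 0.41. PHLDA3, which blocks AKT signalling, had a mean of -0.45 ± 0.39. It was 1 of the 30 genes lower in 4 of 4 pairs, against 17.4% of all probes.

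Genes of DNA break repair had a median of 0.26 over 23 genes and 0.09 without replicate 4, with 7 higher and none lower at an unadjusted p below 0.05, against 12.4% and 14.6% of all probes. BRCA1 had ratios of 0.45, 0.35, 0.70 and 1.83. RAD50 and MRE11, subunits of the complex that senses broken ends, had means of 0.66 ± 0.44 and 0.57 ± 0.44, and in both the groups did not overlap. CHEK1, the checkpoint kinase downstream of ATR, had ratios of 0.40, 0.34, 0.34 and 1.23.

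Genes of G2/M and mitosis had a median of 0.37 over 25 genes, and 24 of them had a mean above 0. The medians by pair were 0.18, 0.37, 0.21 and 0.74, and without replicate 4 the median was 0.29 with 9 genes higher at an unadjusted p below 0.05, where 6.37% of all probes were. With replicate 4 it was 12 genes, where 12.4% of all probes were. CDK1, the kinase that drives entry into mitosis, read 11.23, 11.24, 10.76 and 11.84 on the irradiated arrays and 10.62, 10.75, 10.04 and 10.29 on the controls, without overlap. Its mean log2 ratio was 0.84 ± 0.48. The kinetochore motor CENPE and the kinetochore protein CENPF had means of 0.86 ± 0.78 and 0.75 ± 0.56, again without overlap, and the spindle checkpoint kinase TTK had 0.77 ± 0.68. Without replicate 4 the means of CENPE, CENPF and TTK were 0.52, 0.51 and 0.45. Genes of G1/S and DNA replication had a median of 0.30 over 21 genes, of which all had a mean above 0, but pair 3 gave -0.37, and the median was 0.07 without replicate 4 and 0.52 without replicate 3. At an unadjusted p below 0.05, 4 were higher, against 12.4% of all probes, and it was 15 without replicate 3, against 5.7%, and 2 without replicate 4, against 6.37%. PCNA, the sliding clamp of DNA polymerases, had 0.44 ± 0.20.

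Antioxidant genes had a median of 0.20 over 15 genes (0.09 without replicate 2), with 5 higher and 1 lower at an unadjusted p below 0.05, against 12.4% and 14.6% of all probes, and 3 higher without replicate 1, against 14% of all probes. SLC7A11, the cystine transporter that feeds glutathione synthesis, read 11.78, 11.37, 11.09 and 12.57 on the irradiated arrays and 10.66, 10.52, 9.90 and 10.18 on the controls. The groups did not overlap, and the mean was 1.39 ± 0.69 (SD, n = 4 pairs), or 2.62-fold. A dimmer probe for SLC7A11 gave 1.33 ± 0.56. Without replicate 4 the means were 1.06 and 1.05. TXN, thioredoxin, and SRXN1, sulfiredoxin, had means of 0.46 ± 0.21 and 0.46 ± 0.35.

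ANXA10, a member of the annexin family of calcium-dependent phospholipid-binding proteins, had ratios of 1.60, 1.54, 1.27 and 1.33 that were close to each other. It read 5.22, 5.03, 6.85 and 6.45 on the irradiated arrays and 3.62, 3.49, 5.58 and 5.12 on the controls, so that the groups overlapped across experiments but not within one. It was well above background on all 4 irradiated arrays and on 2 of the 4 controls, so its ratio rests in part on dim control spots. Its mean was 1.43 ± 0.16, with an adjusted p of 0.138 by limma, but it was 0.42 with normexp background correction, and the probe did not pass the filter when that was applied to the 12 arrays at 1 h alone. SETD5, a SET domain protein, had 1.02 ± 0.38 and no overlap, ITPR3, an inositol trisphosphate receptor, had 0.77 ± 0.18 and no overlap, and GASK1B had 0.75 ± 0.17.

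Matrix and contractile genes lay on the other side, with a median of -0.36 over 18 genes. The medians by pair were -0.32, 0.07, -1.08 and -0.65, so that pair 2 differed in sign, and without replicate 4 the median was -0.42. At an unadjusted p below 0.05, 7 genes were lower and 1 higher, against 14.6% of all probes lower, and without replicate 4 it was 5 and 0, against 7.47% of all probes lower, and without replicate 3 it was 4 and 0, against 7.88%. FKBP10, a chaperone that helps collagen fold and cross-link, read 10.19, 9.58, 11.68 and 9.39 on the irradiated arrays and 11.27, 10.63, 13.08 and 12.95 on the controls. The groups overlapped because replicate 3 was high in both, but the ratios were -1.08, -1.05, -1.40 and -3.55, with a mean of -1.77 ± 1.20 (SD, n = 4 pairs) and -1.18 without replicate 4. TNC, the matrix glycoprotein tenascin C, read 14.94, 15.11, 14.44 and 14.50 against 15.27, 15.24, 15.61 and 15.99, without overlap. MYL9, the regulatory light chain of smooth muscle myosin, had ratios of -0.47, -0.17, -1.67 and -0.87, and ELN, elastin, had -0.22, -0.68, -0.56 and -0.60. Of the 10 fibroblast markers, which share collagen genes with this list, 9 had a mean below 0. The median of the 10 was -0.33, at -0.24, 0.15, -0.22 and -1.13 by pair, and it was -0.08 over pairs 1 to 3. Whether the shares of cell states differed between dishes was not tested, and fewer cells of a kind cannot be told apart from less RNA per cell.

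Histone genes had a median of -0.37 over 16 genes, with -0.12, -0.22, -0.48 and -0.41 by pair, and 7 lower and 1 higher at an unadjusted p below 0.05, against 14.6% and 12.4% of all probes. Without replicate 3, 3 were lower, against 7.88% of all probes. H2AC6 read 9.76, 9.91, 9.55 and 8.94 on the irradiated arrays and 10.11, 10.14, 10.44 and 10.62 on the controls, without overlap. H2BC8 and H2BC21, core histones of the H2B family, had means of -0.53 ± 0.30 and -0.55 ± 0.26 without overlap. Histone genes are near copies of each other, so a probe can bind more than the member it is named for. Interferon-response genes had a median of -0.31 over 13 genes, which was -0.06 without replicate 4 and 0.00 with scaling to the E1A transcripts. Ribosomal protein genes had a median of -0.21 over 24 genes, which turned to 0.02 without scaling between arrays and to 0.10 with scaling to the E1A transcripts, and with replicate 4 left out it was -0.10 with 0 members lower at an unadjusted p below 0.05, where 7.47% of all probes were. It was 6 members with all replicates, where 14.6% of all probes were, and 0 without replicate 3, where 7.88% were. RPL8 and RPL18 had means of -0.39 and -0.32. They were named because they were lower in 4 of 4 pairs, as 7 of the 24 genes and 17.4% of all probes were.

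**Figure D3:**
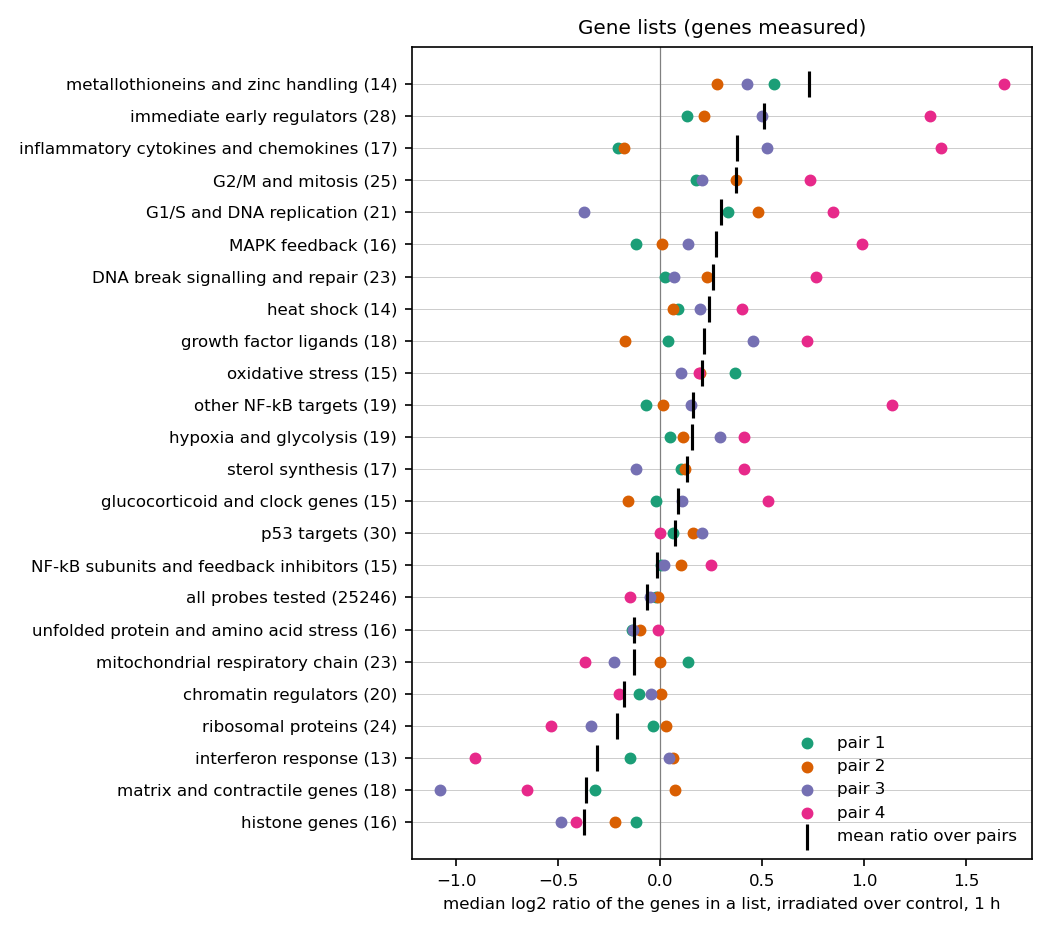
Median log2 ratio of irradiated over control at 1 h (x axis) for the genes of each list and for all probes tested (y axis, number measured in brackets), as a dot for each of the 4 pairs and a bar for the median of the mean ratios. The metallothionein and zinc list has the rightmost bar at 0.73 and histone genes the leftmost of the pathway lists at -0.37, and pair 4 lies farthest right in most lists above 0. The signs of the ribosomal, mitochondrial, chromatin, unfolded protein, interferon and NF-kB subunit lists turn under scaling to the E1A transcripts.

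The medians of the remaining lists were 0.27 for feedback genes of MAP kinases, 0.24 for heat shock, 0.22 for growth factor ligands, 0.16 for hypoxia and glycolysis, 0.13 for sterol synthesis and 0.09 for glucocorticoid and clock genes. Without replicate 4 they were 0.02, 0.14, 0.14, 0.08, 0.07 and -0.03 in the same order, so that the last turned in sign, while without replicate 1 growth factor ligands, hypoxia and glycolysis, and glucocorticoid and clock genes were at 0.34, 0.34 and 0.18. Below 0 were chromatin regulators at -0.18, the mitochondrial respiratory chain at -0.13 and the unfolded protein and amino acid stress list at -0.13, which were -0.09, -0.04 and -0.09 without replicate 4, and the sign of each of these turned without scaling between arrays. DDIT4, which inhibits the growth kinase mTORC1 and was in the last of these lists, had ratios of -0.30, -0.29, -1.04 and -3.39 and groups that did not overlap.

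Outside these lists, the genes with the smallest p among those lower in 4 of 4 pairs and at least 1.5-fold were also described. AKT2, a kinase of insulin signalling, read 11.57, 11.30, 12.53 and 11.30 on the irradiated arrays and 12.42, 12.59, 13.59 and 13.70 on the controls. Its ratios were -0.85, -1.29, -1.06 and -2.39. TMED9, a cargo receptor between the endoplasmic reticulum and the Golgi, had ratios of -1.51, -0.74, -1.19 and -1.51, and DLST, a subunit of the 2-oxoglutarate dehydrogenase complex, had -0.83, -0.65, -0.95 and -1.77. WWOX, GALNT10 and DAPK3 had means of -0.93 ± 0.26, -0.99 ± 0.31 and -0.87 ± 0.45, and in all of them the groups did not overlap. With slide as a fixed block, 26 of the 120 probes named by rule were called, where 1.75% of all probes were and none was with slide as a random block. Part of the named probes were picked by smallest p in the same arrays, so nothing is read from that count. KDM5B, a histone demethylase that the study followed at the protein level, had a ratio of -0.20 ± 0.15. It was lower in 4 of 4 pairs, as 17.4% of all probes were. Its sign turned without scaling between arrays, at 0.04, and with scaling to the E1A transcripts, at 0.12.

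Set against bystander cells of the same experiments, the irradiated cells at 1 h gave 0 of 25246 probes past the limit in the limma test, with 1250 (4.95%) at an unadjusted p below 0.05, of which 273 (1.08%) were higher and 977 (3.87%) lower in irradiated cells. The lowest adjusted p was 0.922. Between these groups the median log2 ratio was -0.09 for metallothioneins and zinc handling, 0.09 for immediate early regulators, 0.22 for G2/M and mitosis and 0.07 for matrix and contractile genes. ATF3, KLF2, GADD45A and FKBP10 had differences between irradiated and bystander cells of 0.17, 0.27, 0.43 and -0.19. A p that misses the limit does not show that the groups were alike.

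The effect at 1 h was also compared with the effects at 0.5 h and 2 h, each measured on 8 arrays of its own. Each time was hybridized on slides of its own, so time and slide cannot be told apart across times, although the ratios were taken within a time. Against 0.5 h, 0 of 25244 probes passed the limit in the limma interaction test and 868 (3.44%) had an unadjusted p below 0.05, 282 (1.12%) with a higher ratio at 1 h and 586 (2.32%) with a lower one. With replicate 4 left out 192 probes passed, and with replicate 3 left out 17 did. At 0.5 h these 2 replicates carry each other's values in the authors' table, and the scanner files were followed. The arrays at 0.5 h shared slides as at the other times with these 2 replicates exchanged, and not with the scanner labels. Leaving out replicate 3 or 4 may therefore drop different experiments at 0.5 h and at 1 h. The metallothionein and zinc list had median effects of 2.31, 0.73 and 1.29 at 0.5, 1 and 2 h, and cytokines had 1.38, 0.38 and 0.40. SERPINB2 had 4.22, 1.51 and 1.78, and CXCL8 had 3.54, 0.83 and 1.16. G2/M genes had -0.22, 0.37 and 0.35. No probe of these lists passed the test against 0.5 h, and the list medians themselves were not tested.

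**Figure D4:**
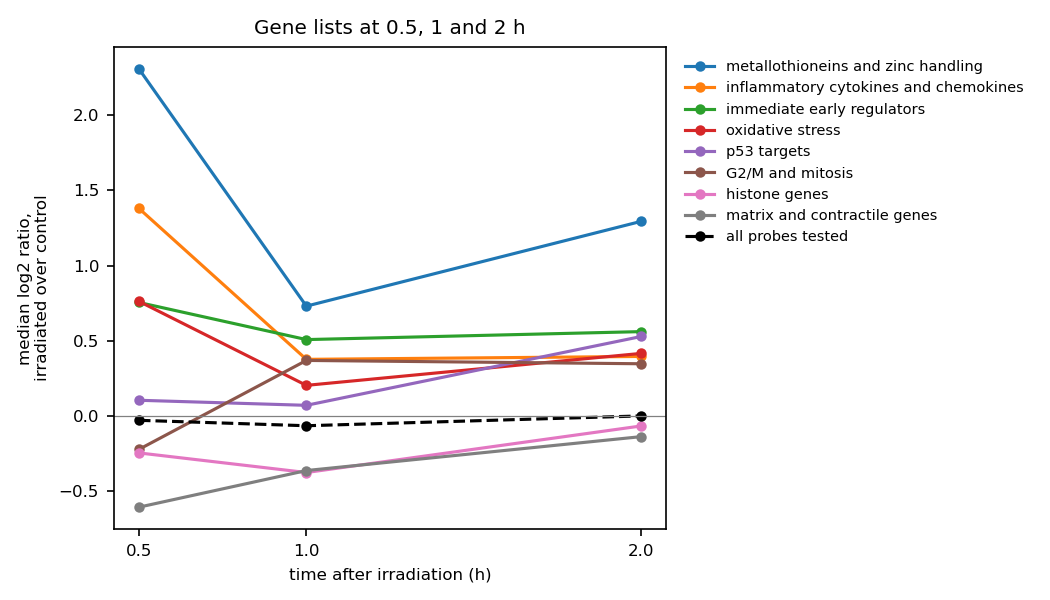
Median log2 ratio of irradiated over control (y axis) for 8 gene lists and all probes tested (lines) at 0.5, 1 and 2 h after irradiation (x axis). The metallothionein and zinc list goes from 2.31 through 0.73 to 1.29, and p53 targets from 0.11 through 0.07 to 0.53.

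Against 2 h, 3 of 25244 probes (0.0119%) passed the limit in the limma interaction test, and 3025 (12%) had an unadjusted p below 0.05, 1156 (4.58%) with a higher ratio at 1 h and 1869 (7.4%) with a lower one. The probes past the limit were both probes of CDKN1A and the probe of ZFP37, a zinc finger gene. The irradiation effect on CDKN1A was 0.43 ± 0.28 and -0.08 ± 0.28 at 1 h and 1.72 ± 0.39 and 1.87 ± 0.62 at 2 h (SD, n = 4 pairs). The effect at 1 h was lower by 1.29 on the log2 scale for the brighter probe and by 1.96 for the dimmer, with adjusted p of 0.0332 and 0.0233 by limma. ZFP37 was 0.27 ± 0.16 at 1 h and -0.87 ± 0.24 at 2 h, a difference of 1.14 with an adjusted p of 0.0553. Other p53 targets had larger effects at 2 h without passing the test: GDF15 went from 0.30 to 1.82, BTG2 from 0.18 to 1.47 and PLK3 from 0.51 to 1.5, each with an adjusted p of 0.151. No probe passed without a replicate block, with slide as a fixed block, with scaling to the E1A transcripts, or without replicate 1, 2 or 3, and 185 passed without replicate 4.

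**Figure D5:**
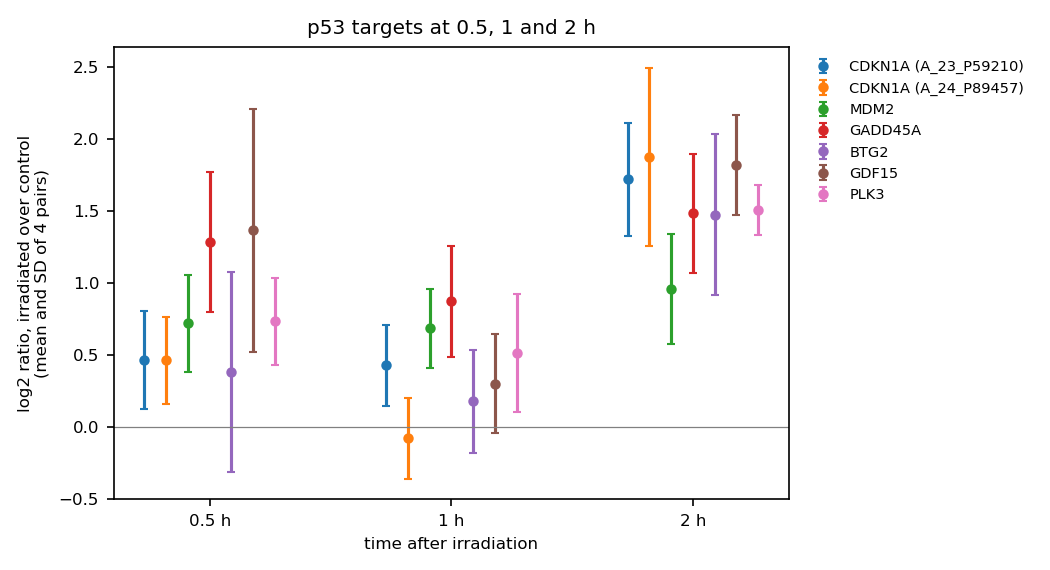
Log2 ratio of irradiated over control (y axis, mean and SD of 4 pairs) of p53 targets (colours; both probes of CDKN1A) at 0.5, 1 and 2 h (x axis). Both CDKN1A probes lie at or below 0.43 at 1 h and at 1.72 and 1.87 at 2 h.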

How the data were processed

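Each sample was hybridized to 1 single-colour (Cy3) array, and the authors deposited the scanner output of Feature Extraction 9.1.3.1 with intensity values in linear units. A second deposited table held the authors' log2 values without scaling between arrays and served as an alternative. Control spots and non-uniform spots were left out, spots of a probe were averaged, arrays were scaled to the same 75th percentile, values under 10 were set to 10, and log2 was taken. Probes without a uniform spot well above background on more than 10% of arrays were dropped, leaving 25246 of 41000. limma 3.58.1 in R 4.3.3 was fitted to the 12 arrays at 1 h with treatment and replicate as terms and an intensity trend, and calls needed a Benjamini-Hochberg adjusted p below 0.10. Effects at other times were compared by an interaction term over 36 arrays. The methods state 4 independent experiments, with the irradiated, bystander and control samples of each run in parallel. Arrays of the same number deviated together (12 of 12 correlations above 0.1, median 0.50), so replicate was a block. Gene names came from the files and RefSeq, and 21.9% of the probes kept stayed unmatched to RefSeq. Genes were named by rule: the smallest p among those with one sign in 4 of 4 pairs and at least 1.5-fold, up to 4 members of each list with one sign in 4 of 4 pairs, the probes called between times, and a fixed set that included CDKN1A, IL6 and KDM5B. Agreement over the 4 pairs was thus a condition for naming many of these genes, not a result about them. The members and lists were chosen with earlier results of these data known. Scripts were tested on simulated data. The number of arrays limits the precision. Some genes are not reported here.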

Additional observations from a re-analysis of the deposited data

Results flagged for a closer look

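In 7 of 120 named probes, 1 pair lay apart from the other 3 by more than Dixon's critical share of the range for 4 values, 0.829, which chance gives in about 1 in 20 groups. In 6 of them it was pair 4: SLC7A11 (the dimmer probe) at 2.18, CEP57L1 at 0.93, CHEK1 at 1.23, EGR1 at 1.00, CRY2 at -0.51 and FKBP10 at -3.55. For CD14 it was pair 2, at -0.77. None of the 23 list medians met the limit. Of 12 measures of pairs and arrays, the SD of the log2 ratios over all probes met it in pair 4, at 0.78, and the share of non-uniform spots in irradiated replicate 1, at 0.362%.

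The irradiation effect differed between 1 h and 2 h in the interaction test for CDKN1A, by -1.29 for the brighter probe and -1.96 for the dimmer, and for ZFP37, by 1.14. No probe passed that test without the replicate block, with slide as a fixed block, with scaling to the E1A transcripts, or without replicate 1, 2 or 3.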

How the results depend on the processing

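The counts of probes called between irradiated and control cells were 0 higher and 0 lower under most settings. They were 286 and 157 with replicate and slide as fixed blocks, 2 and 1 without the intensity trend, and 1 higher with quantile scaling, and leaving out 1 replicate gave 0 to 0. The cause of these differences was not tested. Irradiated against bystander cells gave 0 under every setting run. The difference between 1 h and 0.5 h gave 0 to 192 probes with 1 replicate left out (17 without replicate 3 and 192 without replicate 4). The difference between 1 h and 2 h gave 0 without the replicate block, 0 with slide as a fixed block, 0 with scaling to the E1A transcripts, 1 with normexp, 3134 without scaling between arrays, and 0 to 185 with 1 replicate left out (185 without replicate 4). A fit without the replicate block, which leaves the pairing of experiments unused, gave 1313 probes higher and 1625 lower at an unadjusted p below 0.05. Directions of named probes turned only with scaling: without scaling between arrays for CDKN1A (dimmer probe, 0.15), HDAC4 (0.0186), KDM5B (0.0409) and KRT8 (0.0497), and with the E1A transcripts for CDKN1A (dimmer probe, 0.23), COX5B (0.0746), CRY2 (0.0727), FBN1 (0.0450), HDAC4 (0.10), KDM5B (0.12) and KRT8 (0.13). Leaving out replicate 3 or replicate 4 more than any other replicate lowered the counts at an unadjusted p below 0.05, to 1439 higher and 1990 lower and to 1608 and 1885. The counts at an unadjusted p below 0.05 under other settings were chosen after seeing the data.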

Other observations

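In the authors' log2 table, the 12 columns at 1 h each lay closest to the scanner values of their own sample. At 0.5 h the columns of 6 of the 12 arrays, those of replicates 3 and 4 in each group, lay closest to the scanner values of the other of these replicates. Which labelling holds is not known, and the values for 0.5 h given here follow the scanner files.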
